A study of Mus musculus with 6 samples.

Results

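The genes described here belong to the arginine pathway of macrophages: the inducible nitric oxide synthase Nos2, the arginine transporter Slc7a2, the citrulline-recycling enzymes Ass1 and Asl, and the polyamine enzymes Odc1, Srm, Sms and Sat1. These are 8 of the 46603 genes counted, and all 8 were among the 15440 genes with enough reads to be tested. The set was chosen by values of this same contrast, and these 8 genes by their place in the pathway and not by a threshold on their own values.

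RNA-Seq was performed on cells retained by anti-CD11b magnetic beads from kidneys of male mice aged 10 to 12 weeks, on day 3 after bilateral ischemia-reperfusion injury (IRI-AKI) by a 28 minute clamp of the vessels to each kidney. The mice called PTEC DN RAR (genotype PEPCK CRE+; Rosa26-LSL-RARaT403X, n = 3) express a truncated, dominant-negative retinoic acid receptor in proximal tubular epithelial cells (PTECs). Cre- controls (genotype PEPCK CRE-; Rosa26-LSL-RARaT403X, n = 3) carry the same allele, bred to homozygosity according to the methods of the study, without Cre. All 6 mice were injured, so no uninjured level is given here. The PEPCK-Cre line had a mixed 129svJ;C57BL/6 background, the transgene has no line of its own in the count table, and recombination was directed to PTECs rather than to the CD11B+ cells sequenced. Titles give each library a code of its own, taken here as 1 mouse each, and p-values measure only the spread between these libraries.

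Arginine is a source of nitric oxide, and, through ornithine, of proline and the polyamines putrescine, spermidine and spermine. Nitric oxide synthases turn it into nitric oxide and citrulline, which Ass1 and Asl convert back into arginine. In macrophages, Nos2 is known as a gene of classical activation.

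Between 29318041 and 46517005 reads were counted on genes per library, so that 3 reads corresponded to 0.0645 to 0.102 CPM (counts relative to library size, scaled by the TMM factors of edgeR). The defining genes of the isolated cells, Itgam, Ptprc, Cd68 and Lyz2, were present in every library, with a summed level of 15500 to 17600 CPM in Cre- controls and 8800 to 11300 CPM in PTEC DN RAR mice. The sums were mostly Lyz2. Of the 4 genes, 3 were called lower, while Ptprc overlapped between genotypes (log2 fold change -0.11, adjusted p = 0.534, edgeR). Across all genes, 17.1% were called lower and 23.6% higher in PTEC DN RAR mice by edgeR at an adjusted p under 0.05, and the genotypes did not overlap in 53.4%. Transcripts of other kidney cells differed as well. All 14 of 14 proximal tubule markers rose, with a summed level of 836 to 1100 CPM in Cre- controls and 2740 to 4310 CPM in PTEC DN RAR mice, and mitochondrial transcripts took 5.03% to 8.77% and 10.38% to 12.08% of counts. In libraries made from many cells, fewer cells of a type and less RNA per cell cannot be told apart.

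RefSeq promoter entries (GRCm38.p6) were matched for 4 of the 8 genes, Ass1, Odc1, Sat1 and Sms. The promoter of Odc1 is shown because it belongs to the only gene of polyamine synthesis among the 8 that was called lower. The 171 bases below, at chr12:17544623-17544793 on the plus strand, end before the first exon of Odc1 in GENCODE, and capitals mark GC boxes (GGGCGG or its complement CCGCCC).
Odc1: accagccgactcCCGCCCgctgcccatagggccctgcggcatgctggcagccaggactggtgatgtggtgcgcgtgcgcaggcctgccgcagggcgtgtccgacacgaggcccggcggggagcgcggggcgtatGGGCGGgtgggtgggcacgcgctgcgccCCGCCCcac
Within the 250 bases before its RefSeq start, Odc1 held 4 GC boxes, against 1 in Ass1, 2 in Sat1, and 4 and 0 in the entries of Sms. A GC box on either strand was found in 32.7% of the 32851 promoters of the table. The sequence CACGTG was found once in Ass1, 36 bases before the RefSeq start, once in an entry of Sms, and in 6.02% of all promoters. That entry of Sms also held the only CCAAT among these genes (33.8% of all promoters), and TATAAA (12.4% of all promoters) was in none of the 5 windows.

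**Figure D1:**
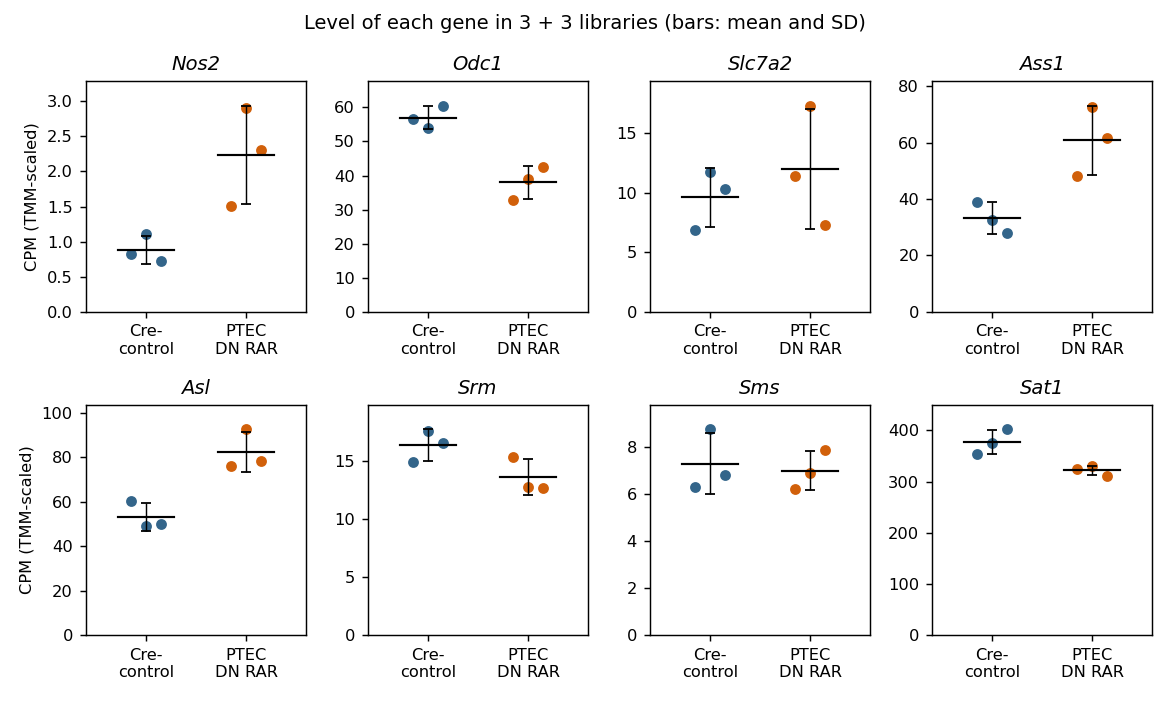
Level of the 8 genes in each library in CPM scaled by TMM (vertical axes from 0), with Cre- controls in blue and PTEC DN RAR mice in orange (n = 3 each), and the mean and SD as bars. The 3 PTEC DN RAR libraries sit between 32.8 and 42.4 CPM for Odc1, below all Cre- controls, while Slc7a2, Srm and Sms overlap between genotypes.

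Nos2, the inducible nitric oxide synthase, rose from a very low level. It was 0.82, 1.11 and 0.729 CPM in Cre- controls and 1.51, 2.9 and 2.31 CPM in PTEC DN RAR mice, from 23 to 33 and 63 to 123 reads. All PTEC DN RAR libraries were above all Cre- controls, with a log2 fold change of 1.34 (SE 0.32, 95% interval 0.62 to 2.06, adjusted p = 0.0105, edgeR). Without Cre- control replicate 3 the log2 fold change was 1.18 and the adjusted p 0.0534. Per 1000 CPM of proximal tubule markers Nos2 was 0.662 to 1.32 CPM in Cre- controls and 0.549 to 0.683 CPM in PTEC DN RAR mice, so the genotypes overlapped on that scale. Thick ascending limb markers, another tubular list, rose in 6 of 6, from 1180 to 1580 CPM to 4500 to 8590 CPM. Per 1000 CPM of them Nos2 was 0.518, 0.937 and 0.541 CPM in Cre- controls. In PTEC DN RAR mice it was 0.209, 0.644 and 0.269 CPM, again with overlap between genotypes. The part of tubular transcripts in the rise of Nos2 was not tested.

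Ass1, which joins citrulline to aspartate, rose. Its level was 39.1, 32.4 and 27.8 CPM in Cre- controls and 48.0, 72.6 and 61.7 CPM in PTEC DN RAR mice. The genotypes did not overlap, and the log2 fold change was 0.88 (SE 0.17, 95% interval 0.49 to 1.26, adjusted p = 0.00455, edgeR). Of its 50-base words 38.62% are also found in the gene Gm5424, and reads aligned to more than 1 place were not counted, so the level of Ass1 may be underestimated.

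Asl, which splits the product of Ass1 into arginine and fumarate, rose as well. Its level was 60.3, 49.1 and 50.1 CPM in Cre- controls and 76.0, 92.4 and 78.3 CPM in PTEC DN RAR mice. The genotypes did not overlap, and the log2 fold change was 0.63 (SE 0.11, 95% interval 0.37 to 0.89, adjusted p = 0.0035, edgeR). No 50-base word of Asl is found in another gene.

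Kidney proximal tubule is a known site of both enzymes, and the median log2 fold change of its 14 markers, 1.86, was above those of Ass1 and Asl. The smallest rise among these markers was that of Slc13a3, 0.77. Ass1 per 1000 CPM of these markers was 36.6, 38.7 and 25.3 CPM in Cre- controls and 17.5, 16.8 and 18.2 CPM in PTEC DN RAR mice. For Asl the values were 56.5, 58.8 and 45.5 CPM against 27.7, 21.4 and 23.1 CPM. On that scale the genotypes did not overlap either, and both genes were lower in PTEC DN RAR mice. The part of tubular transcripts in the rise of Ass1 and Asl was not tested.

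**Figure D2:**
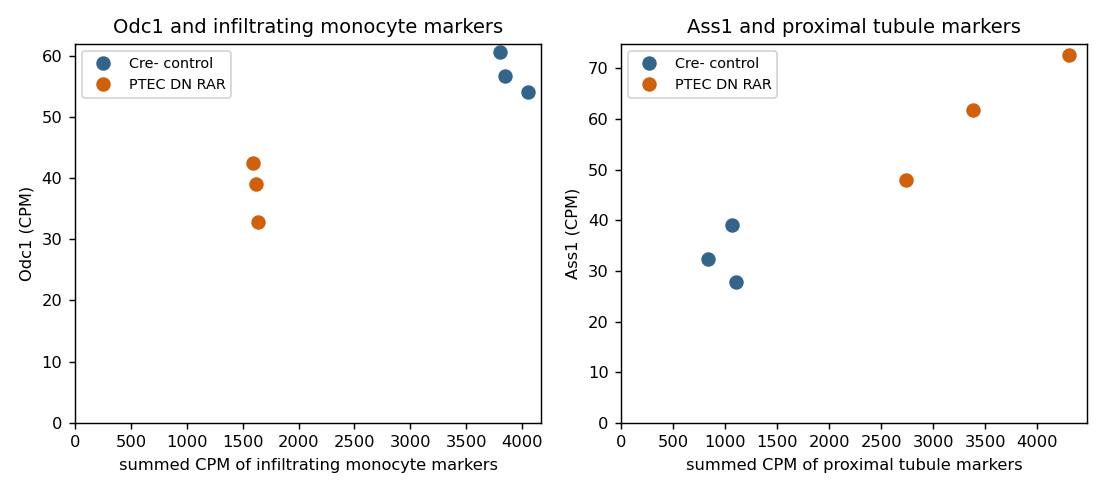
Odc1 against the summed infiltrating monocyte markers (left) and Ass1 against the summed proximal tubule markers (right), both axes in CPM from 0, 1 point per library, Cre- controls in blue and PTEC DN RAR mice in orange. Monocyte marker sums were 3800 to 4050 CPM in Cre- controls, where Odc1 ranged from 54.0 to 60.5 CPM, and both were lower in PTEC DN RAR mice, while Ass1 and the tubule markers were both higher there.

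Slc7a2, an inducible carrier of arginine and other cationic amino acids, did not pass the test. It was 6.89, 11.7 and 10.3 CPM in Cre- controls and 11.4, 17.3 and 7.31 CPM in PTEC DN RAR mice. The genotypes overlapped, with a log2 fold change of 0.32 (SE 0.31, 95% interval -0.38 to 1.02, adjusted p = 0.432, edgeR). Without PTEC DN RAR replicate 2, the highest library, the log2 fold change was -0.04.

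Odc1, the rate-limiting enzyme of polyamine synthesis that makes putrescine from ornithine, fell. It was 56.6, 54.0 and 60.5 CPM in Cre- controls and 32.8, 39.0 and 42.4 CPM in PTEC DN RAR mice. The genotypes did not overlap, and the log2 fold change was -0.58 (SE 0.11, 95% interval -0.83 to -0.33, adjusted p = 0.00398, edgeR). With libraries scaled to a set of pan-leukocyte reference genes, the log2 fold change was -0.35 and the adjusted p 0.093. Odc1 (chromosome 12, 17544794 to 17551505, plus strand) shares 24.29% of its 50-base words with other genes, mainly Gm7993, Gm17709 and Gm9115, so its level may be underestimated. Per 1000 CPM of infiltrating monocyte markers it was higher in PTEC DN RAR mice, at 20, 24.1 and 26.7 CPM against 14.7, 13.3 and 15.9 CPM in Cre- controls.

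Markers of several leukocyte types differed along with Odc1. Of 8 genes of infiltrating monocytes, 7 fell, and their summed level was 3800 to 4050 CPM in Cre- controls and 1590 to 1640 CPM in PTEC DN RAR mice. None of the 8 was at 0 in all libraries. Genes of resident macrophages kept overlapping sums, 19900 to 25100 CPM in Cre- controls and 21900 to 27600 CPM in PTEC DN RAR mice, with 1 of 10 called lower and 1 higher (Cd81).

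Less abundant lists were counted too, where 17.1% of all genes tested were called lower and 23.6% higher. Of 10 neutrophil genes 5 fell and 5 did not pass the test, with sums of 471 to 849 CPM in Cre- controls and 299 to 426 CPM in PTEC DN RAR mice. Of 6 genes of large peritoneal macrophages, 2 fell (Prg4 and Alox15) and 4 did not pass the test, with sums of 42.8 to 211 CPM against 12.5 to 29.6 CPM, while Gata6, a defining factor of these cells, was between 0.158 and 3.19 CPM in all 6 libraries. Of 6 platelet genes, 4 were tested, of which Pf4 and Ppbp fell, Itgb3 rose and Itga2b had a log2 fold change of 0.02. The list sums, mostly Pf4, were 281 to 414 CPM against 39.6 to 51.9 CPM. Their part in the fall of Odc1 was not tested.

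The aminopropyl transferases that follow Odc1 did not pass the test. Srm, which makes spermidine from putrescine, was 14.9, 17.6 and 16.6 CPM in Cre- controls and 15.4, 12.8 and 12.7 CPM in PTEC DN RAR mice, with a log2 fold change of -0.27 (95% interval -0.55 to 0.02, adjusted p = 0.127, edgeR). Sms, which makes spermine from spermidine, was 6.33, 8.76 and 6.84 CPM in Cre- controls and 6.24, 6.9 and 7.88 CPM in PTEC DN RAR mice, with a log2 fold change of -0.06 (95% interval -0.45 to 0.33, adjusted p = 0.81, edgeR). The genotypes overlapped for both genes. The interval of Sms allows a level from 0.733 to 1.26 times that of Cre- controls.

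Sat1, which acetylates spermidine and spermine for export or breakdown, was the most abundant of these 4 polyamine genes per length. It was 354, 376 and 402 CPM in Cre- controls and 324, 330 and 312 CPM in PTEC DN RAR mice. The genotypes did not overlap, yet the log2 fold change of -0.23 (SE 0.09, 95% interval -0.43 to -0.03) had an adjusted p of 0.0627 by edgeR. The adjusted p was 0.0093 with DESeq2, 0.0299 with RLE size factors and 0.0381 without Cre- control replicate 1, and the log2 fold change was -0.01 when scaled on pan-leukocyte reference genes.

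Among the 8 genes, 1 fell (Odc1), 3 rose (Nos2, Ass1 and Asl) and 4 did not pass the test, beside the 17.1% of all genes tested that were called lower and the 23.6% called higher. With DESeq2, with RLE size factors or without Cre- control replicate 1, 2 were called lower (Odc1 and Sat1), and 2 rose without Cre- control replicate 3. When scaled on pan-leukocyte reference genes, 0 were called lower by edgeR, and 1 was lower at an unadjusted p under 0.05. All 8 passed the filter on low counts. Their genotypes did not overlap in 5 of 8, beside the 53.4% of all genes tested. The median log2 fold change of the 8 was 0.13, and that of all genes tested was 0.04.

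**Figure D3:**
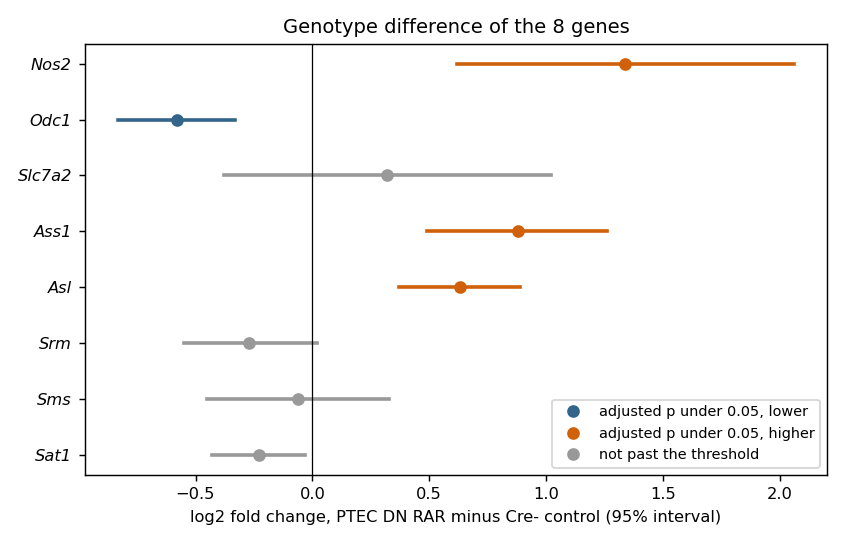
Log2 fold change of the 8 genes, PTEC DN RAR minus Cre- control, with 95% intervals from edgeR (3 mice per genotype). Odc1 (blue) lies below 0, Nos2, Ass1 and Asl (orange) above 0, and the other 4 genes (grey) did not pass the test.

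The order of the genes by level differed between genotypes. In Cre- controls the mean level per length, in RPKM (CPM per kilobase of exon), ran from Sat1 (136 RPKM) through Odc1 (16.8 RPKM), Ass1 (13.7 RPKM), Asl (11.0 RPKM) and Srm (10.2 RPKM) to Sms (1.22 RPKM), Slc7a2 (1.05 RPKM) and Nos2 (0.201 RPKM). The ranges of each pair of neighbours from Odc1 to Srm overlapped in Cre- controls, as did those of Sms and Slc7a2. Clear steps were found after Sat1, after Srm and after Slc7a2.

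In PTEC DN RAR mice Sat1 led again with 116 RPKM, followed by Ass1 (25.2 RPKM), Asl (17.0 RPKM), Odc1 (11.2 RPKM) and Srm (8.52 RPKM). Slc7a2 (1.31 RPKM), Sms (1.17 RPKM) and Nos2 (0.507 RPKM) came last. The mean of Odc1 was now below those of Ass1 and Asl, and the ranges of these 3 genes did not overlap. In Cre- controls Odc1 was 1.22 times Ass1 with overlapping ranges, and 24.29% and 38.62% of their 50-base words are shared with other genes, so the order of the pair may depend on reads left uncounted. Slc7a2 and Sms overlapped, while the other neighbours did not. Of the 50-base words of Sms 17.48% are shared with other genes, and of those of Slc7a2 6.42%. The order of this pair may thus also depend on reads left uncounted.

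**Figure D4:**
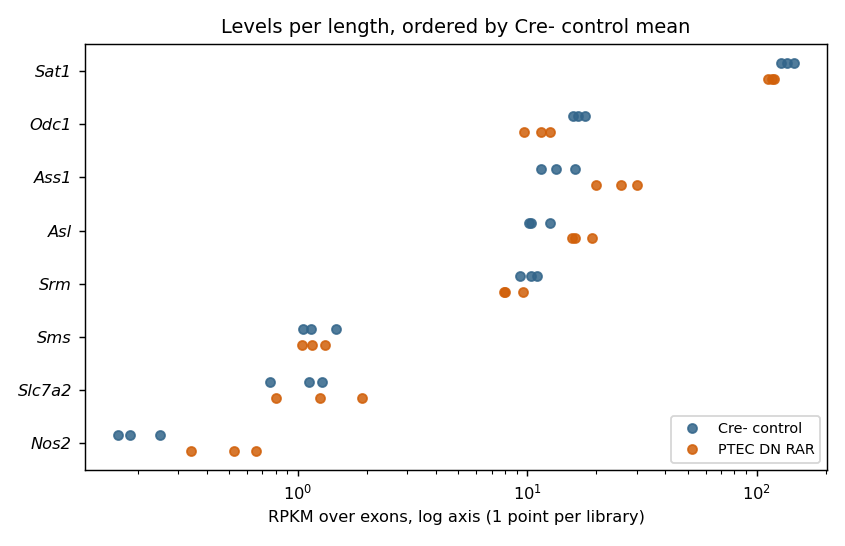
Level per length of the 8 genes in RPKM on a log axis, 1 point per library, ordered by the mean of Cre- controls (blue) with PTEC DN RAR mice in orange. The mean of Odc1 lies above those of Ass1 and Asl in Cre- controls and below them in PTEC DN RAR mice, while Sat1 remains above 100 RPKM in all 6 libraries.

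Around these genes, 7 lists of arginine and polyamine genes held 49 further genes, of which 44 were tested. Agmat passed the filter only through the PTEC DN RAR libraries and is left out of the next counts unless stated. Of the other 43, 5 fell and 16 rose, where 17.1% of all genes tested were called lower and 23.6% higher. The median log2 fold change was 0.17, beside 0.04 over all genes tested. Without PTEC DN RAR replicate 1, 2 or 3 the number that fell was 2, 1 or 3. When scaled on pan-leukocyte reference genes it was 0 by edgeR (also 0 at an unadjusted p under 0.05). With Agmat counted, 17 of the 44 genes were called higher with TMM and 20 on the reference genes. The median over all genes tested shifted with this scaling from 0.04 to 0.26 on the log2 scale. DESeq2 and limma-voom called 5 and 4 lower.

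Arginine carriers were split. Slc25a15, the mitochondrial ornithine carrier, rose from 15.3, 15.8 and 17.8 CPM in Cre- controls to 26.0, 33.8 and 28.2 CPM in PTEC DN RAR mice (log2 fold change 0.85, adjusted p = 0.00148, edgeR). Slc25a29, a mitochondrial carrier of basic amino acids, rose by 1.96 on the log2 scale from a level of 0.507 to 0.637 CPM. The basolateral exporter Slc7a7 rose by 0.68, and lost its call without Cre- control replicate 2 or 3. Slc3a2, the heavy chain that pairs with such carriers, fell by 0.29 on the log2 scale (adjusted p = 0.0283, edgeR), and lost its call in 3 of the 6 fits that left out a mouse, those without Cre- control replicate 1 and PTEC DN RAR replicates 1 and 2. The constitutive arginine carrier Slc7a1 had 32.8 to 37.5 CPM in Cre- controls and 29.6 to 32.7 CPM in PTEC DN RAR mice (log2 fold change -0.16, adjusted p = 0.204, edgeR). Proximal tubule markers rose in 14 of 14 and thick ascending limb markers in 6 of 6. Their part in the rises of Slc25a15, Slc25a29 and Slc7a7 was not tested.

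The other nitric oxide synthases rose. Nos3, the endothelial enzyme, was 2.82, 2.62 and 2.63 CPM in Cre- controls and 7.5, 7.56 and 8.94 CPM in PTEC DN RAR mice (log2 fold change 1.57, adjusted p = 0.000315, edgeR). All 7 of 7 endothelial markers rose, from a sum of 56.6 to 92.0 CPM to 181 to 227 CPM, and Nos3 per 1000 CPM of them overlapped between genotypes (28.9 to 46.5 CPM and 33.4 to 44.9 CPM). Nos1, the neuronal enzyme, which was singled out after its values were seen, rose by 1.58 on the log2 scale from 16 to 32 reads to 63 to 115 reads. Ddah1, which degrades inhibitors of nitric oxide synthase, rose by 1.62 on the log2 scale, from 6.68 to 8.93 CPM to 20.3 to 28.6 CPM. The part of endothelial and tubular transcripts in these rises was not tested.

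Tetrahydrobiopterin, the cofactor of nitric oxide synthases, is made and recycled by another part of the list. Gch1, the first enzyme of its synthesis, fell from 23.8, 18.1 and 18.8 CPM to 15.2, 15.2 and 14.0 CPM (log2 fold change -0.45, adjusted p = 0.0246, edgeR). Its call was lost without any 1 of the PTEC DN RAR replicates 1, 2 and 3. Spr and Qdpr, a later enzyme of synthesis and one of recycling, rose by 0.54 and 0.5. Over the whole nitric oxide list of 12 genes, 6 rose and 2 fell, where 23.6% of all genes tested were called higher and 17.1% lower.

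The urea cycle enzymes Cps1, Otc and Nags were too low to be tested, with at most 0.377 CPM in any library. Of the 4 tested genes listed under citrulline, creatine and ornithine use, Gatm rose by 0.39 on the log2 scale. It was 336 to 400 CPM in Cre- controls and 441 to 591 CPM in PTEC DN RAR mice. This call held in only 1 of the 6 fits that left out a mouse, that without PTEC DN RAR replicate 1. The call of Gatm was also lost with RLE size factors (adjusted p = 0.0596, edgeR) and when scaled on total library size (adjusted p = 0.053, edgeR). Agmat had 2, 0 and 3 reads in Cre- controls and 14, 17 and 23 reads in PTEC DN RAR mice. Oat, which turns ornithine toward proline, was 158 to 171 CPM in Cre- controls and 176 to 193 CPM in PTEC DN RAR mice (log2 fold change 0.17, adjusted p = 0.118, edgeR).

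Of 6 proline genes, the 2 of breakdown rose and the 4 of synthesis did not pass the test. Over all genes tested, 23.6% were called higher and 17.1% lower. Breakdown and synthesis were not tested against each other. Prodh, the first enzyme of proline breakdown, rose by 1.75 on the log2 scale, from 16.8, 11.8 and 13.6 CPM to 42.1, 55.0 and 45.2 CPM (adjusted p = 0.000212, edgeR). Aldh4a1, the next enzyme, rose by 1.38, from 25.4, 19.3 and 20.9 CPM to 53.0, 58.5 and 59.7 CPM (adjusted p = 0.000201, edgeR). Aldh18a1, the first enzyme of proline synthesis, was 22.7 to 33.4 CPM in Cre- controls and 21 to 26.4 CPM in PTEC DN RAR mice (log2 fold change -0.26, adjusted p = 0.2, edgeR). It was called lower without Cre- control replicate 1. Proximal tubule markers rose alongside Prodh, Aldh4a1 and Gatm, in 14 of 14 with a median log2 fold change of 1.86, and their part in these rises was not tested.

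Other genes of polyamine synthesis and its antizymes, which inhibit Odc1, gave 1 call among 6 tested genes, where 23.6% of all genes tested were called higher and 17.1% lower. Azin2, a member of the antizyme inhibitor family, rose by 1.1 on the log2 scale from 1.52 to 2.05 CPM. Azin1, the abundant antizyme inhibitor, was 100, 138 and 136 CPM in Cre- controls and 100, 102 and 105 CPM in PTEC DN RAR mice (log2 fold change -0.28, adjusted p = 0.0966, edgeR). The antizyme Oaz1 had a log2 fold change of -0.25 (adjusted p = 0.147, edgeR). Without Cre- control replicate 1, 2 genes of this list were called lower, Azin1 among them. Without Cre- control replicate 2, 1 was called lower, Oaz1.

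Among genes of polyamine breakdown and transport, Smox, which oxidizes spermine, fell from 89.4, 79.1 and 87.5 CPM to 58.6, 61.2 and 65.8 CPM (log2 fold change -0.46, adjusted p = 0.00397, edgeR). This call held in all 6 fits that left out a mouse. It did not hold when scaled on pan-leukocyte reference genes (log2 fold change -0.24, adjusted p = 0.172). Slc18b1, a vesicular polyamine carrier, and Sat2, a relative of Sat1, rose by 1.0 and 1.03 on the log2 scale, from at most 3.48 and 1.92 CPM in Cre- controls. Eif5a, the protein that carries hypusine made from spermidine, fell by 0.33 on the log2 scale, from 333 to 344 CPM to 255 to 295 CPM, and lost its call without PTEC DN RAR replicate 2. Dohh, the last enzyme of hypusine synthesis, rose by 0.33, a call that held in only 1 of the 6 fits that left out a mouse, that without Cre- control replicate 1. Proximal tubule markers rose in 14 of 14, while 7 of 8 infiltrating monocyte markers fell. The part of these cell types in the rises and falls of this paragraph was not tested.

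**Figure D5:**
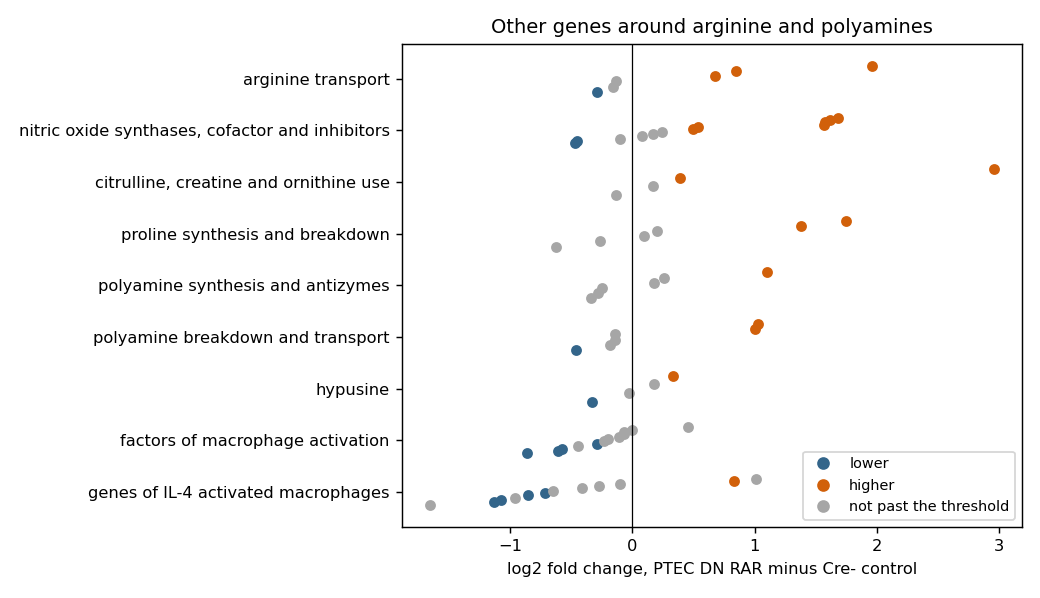
Log2 fold change, PTEC DN RAR minus Cre- control, of each tested gene of the 7 arginine and polyamine lists and of 2 lists of regulators and activation genes, with genes called lower in blue, higher in orange and not past the threshold in grey (edgeR). Vertical offsets within a list only separate the points. The nitric oxide list holds 6 orange points, and the list of factors of macrophage activation holds 4 blue points and no orange one. Agmat, which passed the filter only through the PTEC DN RAR libraries, is among the orange points.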

How the data were processed

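The authors deposited 1 table of counts, the reads assigned to each Ensembl gene in 6 libraries without normalization, made by STAR 2.5.0a and HTSeq 0.6.1 on GRCm38 per the submitters' processing notes. RNA was polyA-selected. Reads aligned to more than 1 place (42.93% to 47.75% of alignments) and reads shared by overlapping genes were left out of gene counts, which lowers genes with near-identical copies. The table's 46612 gene lines held 9 repeats, which were collapsed, and 27 symbols turned into dates were restored.

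Mice were grouped by labelled genotype. After filterByExpr and TMM scaling, genes were tested by edgeR 4.0.16 (quasi-likelihood test, R 4.3.3), with Benjamini-Hochberg adjustment over all 15440 genes tested and a threshold of 0.05. SE is the absolute log2 fold change over the square root of F. Intervals are at the 95% level. CPM values are TMM-scaled, and RPKM uses the union of GENCODE M21 exons. Words of 50 bases were compared between exons of all genes. Promoters were searched on both strands for the TATA box (TATAAA), the CCAAT box (CCAAT), the GC box (GGGCGG) and the E-box (CACGTG). One alternative scaling used 26 genes expressed across leukocytes. Others used limma 3.58.1 and DESeq2 1.42.0. The test was checked on simulated counts. Libraries of 1 genotype differed well beyond sampling noise (chi-square over degrees of freedom, lowest value 27.8), so none was counted as a repeat deposit of another. This does not show that they came from separate mice.

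The genes and all lists were chosen with earlier results of these data known. All 8 genes are named, and some genes of the set and of the lists are not reported here. From other lists, up to 3 called genes per direction with the smallest adjusted p are named, and genes of at least 10 CPM on which a paragraph turns. Marker genes, Nos1, Stat6, Chil3, Retnla, Cps1, Otc and Nags lie outside this rule and were named after their values were seen. Lists of dendritic cells, NK cells, B cells, distal tubule, collecting duct and podocytes were also counted. Of genes tested, 1 of 6, 0 of 4, 0 of 4, 0 of 4, 0 of 6 and 0 of 5 fell. In the same order, 2, 0, 1, 4, 3 and 4 rose. Over all genes tested, 17.1% were called lower and 23.6% higher.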

Additional observations from a re-analysis of the deposited data

How the results depend on the processing

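The 14 alternatives were limma-voom, DESeq2, 2 filters, 3 scalings, the replicate block and leaving out each of the 6 mice. Ass1 and Asl kept their calls in all 14. Scaling on pan-leukocyte reference genes lowered the number of genes called lower from 2636 to 698, with 4961 called higher, so that 87.7% of calls were higher against 58.0% with TMM. It also left 0 of the 8 genes called lower and 0 of the other pathway genes, and turned Sms to 0.18. The cause of this shift was not tested. DESeq2 and RLE size factors called 2 of the 8 genes lower, against 1. Leaving out a mouse moved that number between 1 and 2, the number of other pathway genes called lower between 1 and 7, Sms between -0.19 and 0.05 and Slc7a2 between -0.04 and 0.54.

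Same-numbered mice of the genotypes deviated from their group means with correlations of -0.015, 0.211 and 0.029. Only number 2 correlated best with its own number on both sides. With 3 libraries per genotype these values cannot decide whether the numbers pair the mice, and the titles do not state a pairing. With the replicate block, 2606 genes were called lower and 3612 higher, and the 8 genes kept 1 lower and 3 higher. TPM in place of RPKM kept the order of the 8 genes in both genotypes. Among the 8 genes Nos2 had the fewest reads, 23 to 123 per library.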

Other observations

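Transcription factors of macrophage activation were lower or without a call. Of 12, 4 fell and 0 rose by edgeR, where 17.1% of all genes tested were called lower and 23.6% higher, and the median log2 fold change was -0.22. Pparg was higher at an unadjusted p under 0.05, which makes 1 of 12. Limma-voom and DESeq2 called 0 higher, while scaling on pan-leukocyte reference genes (Pparg 0.67, adjusted p = 0.0129), the replicate block and the fit without PTEC DN RAR replicate 3 each called 1 higher. Cebpb, a C/EBP family factor of myeloid cells, was 304, 200 and 287 CPM in Cre- controls and 146, 129 and 161 CPM in PTEC DN RAR mice (log2 fold change -0.86, adjusted p = 0.00391, edgeR). Hif1a, the hypoxia-inducible factor, fell by 0.61 on the log2 scale, from 182, 196 and 237 CPM to 127, 131 and 144 CPM (adjusted p = 0.00385, edgeR), and Myc fell by 0.57 (adjusted p = 0.00713, edgeR). When scaled on pan-leukocyte reference genes, Cebpb kept its call at -0.64, while Hif1a (adjusted p = 0.0591) and Myc (adjusted p = 0.0893) did not. The fourth, Stat6, the factor downstream of the IL-4 receptor, was named after its values were seen and had a log2 fold change of -0.29 with TMM and -0.07 on the reference genes. Of infiltrating monocyte markers 7 of 8 fell, as did 5 of 10 neutrophil genes and 3 of 4 defining genes of CD11B+ cells, and their part in these falls was not tested.

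Genes of macrophages activated by IL-4 did not move as 1 block. Of 12, 4 fell (Tgm2, Il4ra, Mrc1 and Chil3), 1 rose and 7 did not pass the test, where 17.1% of all genes tested were called lower and 23.6% higher, with a median log2 fold change of -0.68. Without a filter on low counts 7 were called lower, and with the replicate block 6. Tgm2, a transglutaminase, fell from 496, 433 and 629 CPM to 235, 232 and 243 CPM (log2 fold change -1.13, adjusted p = 0.000579, edgeR). Il4ra, a receptor chain for IL-4, fell by 0.85 on the log2 scale, from 390, 344 and 446 CPM to 230, 209 and 216 CPM. Retnla, a classical gene of this list, was at 0.348 to 1.61 CPM in Cre- controls and 0.572 to 3.68 CPM in PTEC DN RAR mice, and the genotypes overlapped. Pdcd1lg2, the ligand PD-L2, rose by 0.83 from at most 1.51 CPM, a call that held in only 2 of the 6 fits that left out a mouse, those without Cre- control replicate 1 and PTEC DN RAR replicate 3. Of these 12, Tgm2, Il4ra, Mrc1 and Chil3 kept their calls as lower, and Pdcd1lg2 its call as higher, when scaled on pan-leukocyte reference genes. Infiltrating monocyte markers fell along with these genes, and their part was not tested.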
